A study of Mus musculus with 5 samples.

Results

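The genes described here build and fill the lysosome. They are 34 mouse genes chosen by name for their place in this organelle, and all 34 were found by NCBI gene identifier among the 27179 genes of the count table. They comprise 8 genes of the V1 sector of the vacuolar proton pump, the V-ATPase, 6 of its V0 sector, 2 accessory proteins of the pump, 5 lysosomal membrane proteins, 6 hydrolases, 4 proteins of lipid transfer or hydrolase support, and 3 transcription factors of the MiT/TFE family. Cathepsins were left out of the choice. The cells were Langerhans cells, the phagocytic antigen-presenting cells of the epidermis, purified from skin of C57BL/6 mice at 1 week of age, with 5000 cells in a library. The mice carried a conditional knockout of Suz12 (Suz12 cKO, 3 biological replicates) or were wild type (WT, 2 biological replicates). The Suz12 protein belongs to the Polycomb complex that methylates lysine 27 of histone H3. The labels do not say which promoter drives recombination, which exons are removed or whether animals were pooled. Polyadenylated RNA was counted per gene, and the design asks which transcripts differ without Suz12.

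Lysosomes are acidified by the V-ATPase, a rotary pump whose V1 sector hydrolyses ATP in the cytosol and whose V0 sector carries protons across the membrane. Low pH activates the hydrolases that digest proteins, glycans and lipids, and heavily glycosylated membrane proteins shield the limiting membrane. The MiT/TFE factors are known to switch on many of these genes together by binding an extended E-box, the CLEAR element, near their start sites. In antigen-presenting cells the same compartment prepares peptides for MHC class II.

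Counts assigned to genes came to between 12090062 and 25725900 in the Suz12 cKO libraries and to 18656968 and 17041996 in the WT libraries. Values are given as CPM, the count scaled by the effective library size to 1e+06 counts. For a gene with no count in a library the floor was set at 3 counts, which were worth 0.106 to 0.257 CPM in the largest and the smallest library. Such floors and all intervals of counts cover counting error only. Suz12 itself had 0, 0 and 7 counts in the Suz12 cKO libraries (0, 0 and 0.599 CPM), against 88 and 39 counts in the WT libraries (4.64 and 2.29 CPM), in the direction of the labels. The source label names alveolar macrophages, while titles, tissue and protocol name Langerhans cells of skin. Cd207, which encodes langerin, lay between 6613 and 14539 CPM in Suz12 cKO and at 7554 and 7387 CPM in WT, and all 11 Langerhans cell markers had counts in every library. Markers of dermal macrophages and monocytes (12 genes, of which Folr2 and Lyve1 were at 0 throughout) summed to 774, 1226 and 914 CPM in Suz12 cKO and to 2865 and 1613 CPM in WT. These sums did not overlap, but Lyz2 made the separation, since the other 11 genes summed to 249, 589 and 416 CPM in Suz12 cKO and to 772 and 536 CPM in WT, which overlap. Keratinocyte markers (15 genes, with Dsg3 at 0 throughout) summed to between 955 and 1237 CPM in Suz12 cKO and to 347 and 844 CPM in WT, and neutrophil and mast cell markers (10 genes, of which 5 were at 0 throughout) to 239, 539 and 257 CPM in Suz12 cKO and to 170 and 184 CPM in WT. Neither pair of groups overlapped. Mmp9 made up nearly all of the neutrophil and mast cell sum, and the other 9 genes came to 9.41, 18.8 and 8.47 CPM in Suz12 cKO and to 0.0527 and 0.0587 CPM in WT. Melanocyte markers (10 genes) summed to 49.7, 48.8 and 162 CPM in Suz12 cKO and to 41.0 and 464 CPM in WT. T cell markers (9 genes) summed to 769, 269 and 249 CPM in Suz12 cKO and to 647 and 483 CPM in WT. For fibroblast and endothelial markers (10 genes, of which 3 were at 0 throughout) the sums were 9.72, 46.6 and 210 CPM in Suz12 cKO and 21.1 and 109 CPM in WT. In bulk RNA, fewer cells of a type and less RNA per cell cannot be told apart.

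The E-box that MiT/TFE factors recognise was searched in the promoters, and sequences with a match are shown because the choice of genes did not use them. Since these factors are known to bind near many lysosomal genes, the share with a match describes the list and is no test of it. Windows from 250 bases before to 50 bases after each annotated start (RefSeq, build GRCm38.p6) were at hand for 28 of the 34 genes. The motif CACGTG, which reads the same on both strands, was present in at least 1 window of 8 of the 28 genes (28.6%). It was present in 20 of 89 other lysosomal genes (22.5%). Of the 7594 genes with a window and enough counts to test 12.2% had it, and of all 27025 genes with a window 8.09%. The longer motif TCACGTGA, which contains the first, was present in 4 of the 28 (14.3%) and in 9 of the 89 other lysosomal genes (10.1%). Of the genes with enough counts to test 2.49% had it, and of all genes 1.12%. A match describes the letters and not a bound site. Lamp1, which encodes a major glycoprotein of the limiting membrane, had 4 E-boxes, whose first bases lay 61, 45, 28 and 15 bases before the start. The 100 bases before its start, on the plus strand at chr8:13159061-13159160 (GRCm38.p6, the same coordinates as mm10), read as follows, with each E-box in capitals.
Lamp1: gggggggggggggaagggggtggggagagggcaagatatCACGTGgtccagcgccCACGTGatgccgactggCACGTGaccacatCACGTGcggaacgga

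In the other 7 genes an E-box is shown with 15 bases on either side, 5′ to 3′ on the strand of the gene. They are the calcium channel gene Mcoln1 (plus strand, chr8:3500459-3500494), the pump genes Atp6v0d1 (minus, chr8:105566047-105566082), Atp6v1a (minus, chr16:44139370-44139405), Atp6v0e (plus, chr17:26676384-26676419) and Atp6v0b (minus, chr4:117887327-117887362), and the hydrolase genes Glb1 (plus, chr9:114401015-114401050) and Gaa (plus, chr11:119267808-119267843). Mcoln1 and Atp6v0b had 2 each, and those whose first bases lay 45 and 18 bases before the start are shown. The others lay 71 and 36 bases before it. The E-boxes shown for Mcoln1, Atp6v0d1, Atp6v1a and Atp6v0e extend to TCACGTGA.
Mcoln1: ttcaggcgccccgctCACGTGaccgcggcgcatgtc
Atp6v0d1: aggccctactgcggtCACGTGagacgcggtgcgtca
Atp6v1a: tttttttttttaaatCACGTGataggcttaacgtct
Atp6v0e: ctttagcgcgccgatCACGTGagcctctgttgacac
Atp6v0b: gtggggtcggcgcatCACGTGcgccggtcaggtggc
Glb1: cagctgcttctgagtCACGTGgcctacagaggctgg
Gaa: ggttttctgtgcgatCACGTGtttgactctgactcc

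The 8 genes with an E-box ranged widely in expression. Per kilobase of gene length they lay between 0.836 CPM (Gaa) and 1625 CPM (Atp6v0e), with a median of 36.8 CPM per kilobase, against a median of 121 CPM per kilobase over the 20 genes whose windows had none. These levels are averages over both genotypes, each weighted equally.

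Langerhans cells of both genotypes expressed at least 1 form of each pump subunit measured, and most of them strongly. In the V1 sector, Atp6v1f, a subunit of the central rotor, lay at 695, 357 and 656 CPM in Suz12 cKO and at 424 and 541 CPM in WT. Atp6v1e1, a subunit of the peripheral stalk, lay at 506, 376 and 443 CPM in Suz12 cKO and at 519 and 502 CPM in WT. These groups overlapped for both genes, and per kilobase Atp6v1f (828 CPM per kilobase) and Atp6v1e1 (396 CPM per kilobase) ranked above 98.2% and 96.3% of the tested genes. The other stalk subunit Atp6v1g1 lay at 193 CPM per kilobase, the rotor subunit Atp6v1d at 148 CPM per kilobase, the regulatory subunit Atp6v1h at 90.1 and Atp6v1c1, which links stalk and membrane sector, at 52.2. The subunits that bind and hydrolyse ATP had the lowest levels of the sector per kilobase, at 26.0 CPM for Atp6v1a and 13.4 CPM for Atp6v1b2. Both are also the longest genes of the sector, at 3946 and 2742 bp.

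Between genotypes, 7 of the 8 V1 genes had a log2 fold change above 0. Atp6v1h was the V1 gene whose groups did not overlap, at 202, 196 and 214 CPM in Suz12 cKO and at 162 and 143 CPM in WT (log2 fold change 0.42, standard error 0.31). All 3 Suz12 cKO libraries lay above both WT libraries, without a call (edgeR adjusted p = 0.999). The gene lies at chr1:5082978-5163213 (mm10). Atp6v1a lay at 46.6, 192 and 162 CPM in Suz12 cKO and at 86.8 and 56.1 CPM in WT (log2 fold change 0.90, standard error 0.65). Here replicate 1 was the lowest of all libraries while the other Suz12 cKO libraries were the highest. Atp6v1b2 varied most, with 75.8, 33.7 and 2.31 CPM in Suz12 cKO and 51.9 and 20.7 CPM in WT, and a log2 fold change of 0.04. Leaving out Suz12 cKO replicate 1 gave -0.97, and leaving out WT replicate 1 gave 0.85. The median log2 fold change of the V1 genes was 0.33, against 0.06 over all 9988 tested genes. It was 0.16 without Suz12 cKO replicate 1 and 0.32 without WT replicate 2. Without that WT library the median of all tested genes was 0.37, but over 11690 genes, since the filter then kept more of them.

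In the V0 sector the small membrane subunit Atp6v0e was the most abundant of all 34 genes per kilobase. It lay at 1872, 662 and 1407 CPM in Suz12 cKO and at 1240 and 1315 CPM in WT, and WT libraries sat inside the range of the Suz12 cKO libraries. Atp6v0b, a proteolipid of the proton-carrying ring, lay at 659, 383 and 374 CPM in Suz12 cKO and at 472 and 449 CPM in WT. Its ring partner Atp6v0c averaged 386 ± 112 CPM in Suz12 cKO and 391 ± 108 CPM in WT (SD, n = 3 and n = 2). Log2 fold changes of these 3 genes were 0.04, 0.04 and -0.02, with 95% intervals that reached from -1.01 to 1.09 for Atp6v0e, from -0.79 to 0.87 for Atp6v0b and from -0.90 to 0.87 for Atp6v0c. Atp6v0a1, which forms the proton path together with the ring, was scarce at 3.92 CPM per kilobase, and averaged 20.2 ± 7.15 CPM in Suz12 cKO and 11.4 ± 6.61 CPM in WT (SD, n = 3 and n = 2).

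Of the alternative d subunits that couple the sectors, Atp6v0d1 alone had counts. Atp6v0d1, the widely expressed form, lay at 104, 74.9 and 101 CPM in Suz12 cKO and at 79.8 and 41.2 CPM in WT. Atp6v0d2, the form known from mouse osteoclasts and some macrophages, had no count in any library, which allows at most 0.106 to 0.257 CPM in each. Of other tissue forms of pump subunits, Atp6v1b1, known from kidney and inner ear, and Atp6v1e2, Atp6v1g2 and Atp6v1g3 had no count in any library, while Atp6v0a4, Atp6v0e2, Atp6v1c2 and Tcirg1 had counts in 1 or 2 Suz12 cKO libraries.

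The accessory protein Atp6ap2 (chrX:12587759-12617051, mm10), also known as the prorenin receptor, had the smallest p-value among the 34 genes. It lay at 602, 351 and 309 CPM in Suz12 cKO and at 204 and 194 CPM in WT. Every Suz12 cKO library lay above both WT libraries, and the Suz12 cKO libraries were spread more widely than the WT pair, with 421 ± 158 CPM in Suz12 cKO and 199 ± 7.08 CPM in WT (SD, n = 3 and n = 2). The log2 fold change was 1.08 (standard error 0.39, 95% interval 0.16 to 2.00), with an unadjusted p of 0.0281 and an edgeR adjusted p of 0.968, so that it was not called. With 1 library left out it ranged from 0.75, without Suz12 cKO replicate 1, to 1.25, and the unadjusted p from 0.0224 to 0.111. Summed keratinocyte markers and Mmp9 lay higher in the same libraries. Of single keratinocyte markers, Krt10, Krtdap, Sfn and Perp did so. The groups of the others, Krt5 and Krt14 among them, overlapped, and Trp63 had the lower mean in Suz12 cKO. The list of Mmp9 had 5 of its 10 genes at 0 throughout. The part of these markers in the value of Atp6ap2 and in those of Atp6v1h, Scarb2 and Tfe3 was not tested. Atp6ap1, which helps assemble the pump, lay at 358, 545 and 177 CPM in Suz12 cKO and at 360 and 253 CPM in WT. Its groups overlapped fully, with a log2 fold change of 0.23 (standard error 0.49).

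**Figure D1:**
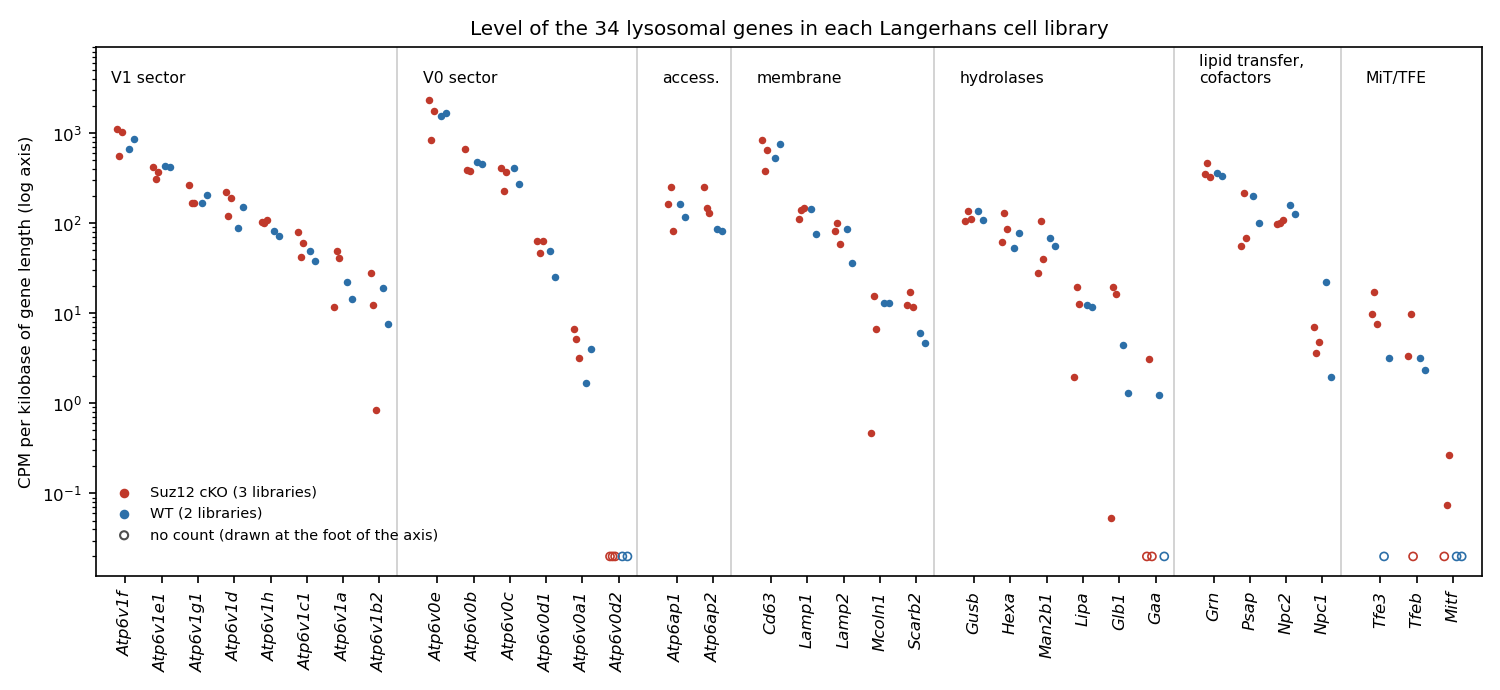
Level of each of the 34 genes in CPM per kilobase of gene length (log axis), by class, in 3 Suz12 cKO libraries (red, left of each pair) and 2 WT libraries (blue, right). Open circles mark libraries with no count, and "access." stands for the accessory proteins. Atp6v0e stands highest at 1625 CPM per kilobase on average, Atp6v0d2 has no count anywhere, and the spread between libraries grows towards the low end.

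Of the membrane proteins of the lysosome, Cd63, Lamp1 and Lamp2 were abundant and Scarb2 and Mcoln1 scarce, at 634, 121, 70.6, 9.54 and 10.3 CPM per kilobase. Cd63, a tetraspanin of late endosomes, lay at 877, 395 and 664 CPM in Suz12 cKO and at 547 and 790 CPM in WT (log2 fold change -0.05, standard error 0.40). Lamp1 lay at 251, 312 and 333 CPM in Suz12 cKO and at 321 and 172 CPM in WT, with WT replicate 2 alone below the other libraries. Lamp2, which also serves chaperone-mediated autophagy, showed the same low value in WT replicate 2 and averaged 329 ± 88.2 CPM in Suz12 cKO and 251 ± 145 CPM in WT (SD, n = 3 and n = 2). Without that library the log2 fold change of Lamp2 was -0.09, in place of 0.39, and that of Lamp1 was -0.10, in place of 0.27.

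Scarb2, the receptor that carries glucocerebrosidase to the lysosome, lay at 25.7, 36.3 and 24.6 CPM in Suz12 cKO and at 12.8 and 9.92 CPM in WT. The groups did not overlap. Its log2 fold change of 1.35 (standard error 1.05, edgeR adjusted p = 0.999) ranged between 1.15 and 1.55 with 1 library left out. The gene lies at chr5:92441311-92505657 (mm10). Mcoln1, a cation channel that releases lysosomal calcium, lay at 0.935, 31.4 and 13.3 CPM in Suz12 cKO and at 25.9 and 25.8 CPM in WT. Suz12 cKO replicate 1 had 15 counts (95% exact Poisson interval 0.523 to 1.54 CPM), far below the near-equal WT pair, while replicate 2 lay above it.

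Among the hydrolases, 3 genes had log2 fold changes above 0 and 3 below, with a median of 0.22 that ranged from -0.17 to 0.60 with 1 library left out, the extremes coming without Suz12 cKO replicate 2 and replicate 1. Gusb, the beta-glucuronidase, was the most even of them, at 258, 332 and 275 CPM in Suz12 cKO and at 333 and 267 CPM in WT (log2 fold change -0.06, standard error 0.30, 95% interval -0.77 to 0.65). Hexa, a subunit of the beta-hexosaminidase that degrades gangliosides, lay at 114, 242 and 162 CPM in Suz12 cKO and at 99.9 and 144 CPM in WT. Man2b1, the acid alpha-mannosidase, lay at 119, 460 and 171 CPM in Suz12 cKO and at 293 and 240 CPM in WT, so that replicate 2 was above both WT libraries and the other Suz12 cKO libraries below them. Lipa, the acid lipase that frees cholesterol from its esters, was also lowest in replicate 1 and highest in replicate 2 of Suz12 cKO, at 5.86, 58.1 and 38.1 CPM in Suz12 cKO and at 36.3 and 34.9 CPM in WT.

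Glb1, the acid beta-galactosidase used as a stain for senescent cells, differed more between libraries than any other of the 34 genes with counts in all 5. It had 2 counts in Suz12 cKO replicate 1 (0.125 CPM) and lay at 46.2 and 38.4 CPM in replicates 2 and 3, against 10.3 and 3.05 CPM in WT. Its log2 fold change of 2.08 came with a standard error of 2.07 and a 95% interval from -2.88 to 7.03, and was -1.0 with the replicate number as a block. Gaa, which degrades glycogen, had no count in Suz12 cKO replicates 1 and 3 and in WT replicate 2, and lay at 11.9 CPM in Suz12 cKO replicate 2 and 4.74 CPM in WT replicate 1.

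Genes of lipid transfer and hydrolase support lay lower in Suz12 cKO for 3 of 4, with a median log2 fold change of -0.44. Npc2, the soluble protein that passes cholesterol to Npc1, lay at 319, 328 and 356 CPM in Suz12 cKO and at 515 and 407 CPM in WT. It was the gene of the 34 with every Suz12 cKO library below both WT libraries (log2 fold change -0.46, standard error 0.28, 95% interval -1.12 to 0.19, edgeR adjusted p = 0.999). It lies at chr12:84754559-84773112 (mm10). Of the macrophage and monocyte markers, Lyz2 lay lower in the same libraries, at 526, 637 and 498 CPM in Suz12 cKO and 2093 and 1077 CPM in WT, as did C1qb, C1qc and Mrc1. The groups of C1qa, Cd163, Ly6c2, Ccr2, Timd4 and Vcan overlapped. The part of these markers in the value of Npc2 was not tested. Npc1, the cholesterol exporter of the membrane, lay at 36.9, 19.0 and 25.1 CPM in Suz12 cKO and at 115 and 10.3 CPM in WT, which bracket them. Without WT replicate 1 its log2 fold change was 1.39, in place of -1.22.

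Psap, the precursor of the saposins that help degrade sphingolipids, lay at 151, 583 and 185 CPM in Suz12 cKO and at 545 and 271 CPM in WT. Suz12 cKO replicate 2 was the highest library and the other Suz12 cKO libraries the lowest. Without that library the log2 fold change was -1.28, in place of -0.41. Grn, which encodes progranulin, a secreted and lysosomal protein, lay at 826, 1092 and 762 CPM in Suz12 cKO and at 843 and 783 CPM in WT. It was the most abundant of these 4 genes per kilobase, and its log2 fold change of 0.14 had a 95% interval from -0.54 to 0.81.

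The transcription factors of the pathway were scarcer than most of the 34 genes, and each lacked counts in at least 1 library. Tfe3 lay at 31.9, 56.7 and 25.0 CPM in Suz12 cKO, against no count and 10.5 CPM in WT. All Suz12 cKO libraries lay above both WT libraries, with a log2 fold change of 2.85 (standard error 2.13, 95% interval -2.23 to 7.93, edgeR adjusted p = 0.999). Without WT replicate 1, which had no count, it was 1.85, and without WT replicate 2 it was 12.48, since no WT count then remained. The gene lies at chrX:7762530-7775202 (mm10). Tfeb lay at 9.47, 27.9 and 0 CPM in Suz12 cKO and at 8.91 and 6.69 CPM in WT, and the WT libraries fell inside the Suz12 cKO range. Mitf, the form that also drives the melanocyte programme, had 0, 11 and 16 counts in Suz12 cKO (0, 0.388 and 1.37 CPM) and none in WT. With 3 counts over the WT group as the floor it was at least 5.78-fold higher, which covers counting error and not the spread between libraries. Mitf was too scarce to test. It had no count in WT replicate 2, the library with the highest sum of melanocyte markers. Tfec, the remaining gene of the family, had no count in any library.

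Over all classes, none of the 32 genes with enough counts to test passed (edgeR quasi-likelihood test, adjusted p under 0.05). The background was 0% of the 9988 genes tested, and the smallest adjusted p over all genes was 0.968. Atp6v0d2 and Mitf were not tested. At an unadjusted p under 0.05 there was 1 of 32, Atp6ap2, where 4.15% of all tested genes had such a value, 210 higher and 205 lower. Groups did not overlap for 5 genes. In 4 of 32, Atp6v1h, Atp6ap2, Scarb2 and Tfe3, all Suz12 cKO libraries lay higher (8.87% of all tested genes), and in 1, Npc2, all lay lower (10.2% of all tested genes). These counts were near the background. Of the 32 genes 22 had a log2 fold change above 0 and 10 below, with a median of 0.24, beside 5246 above and 4742 below and a median of 0.06 over all tested genes. This order of the medians turned without WT replicate 2, to 0.09 over the genes described here and 0.37 over all, and without WT replicate 1 they were 0.33 and 0.29. DESeq2, which called 191 genes over the whole table, called none of the 31 genes described here to which it gave an adjusted p.

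**Figure D2:**
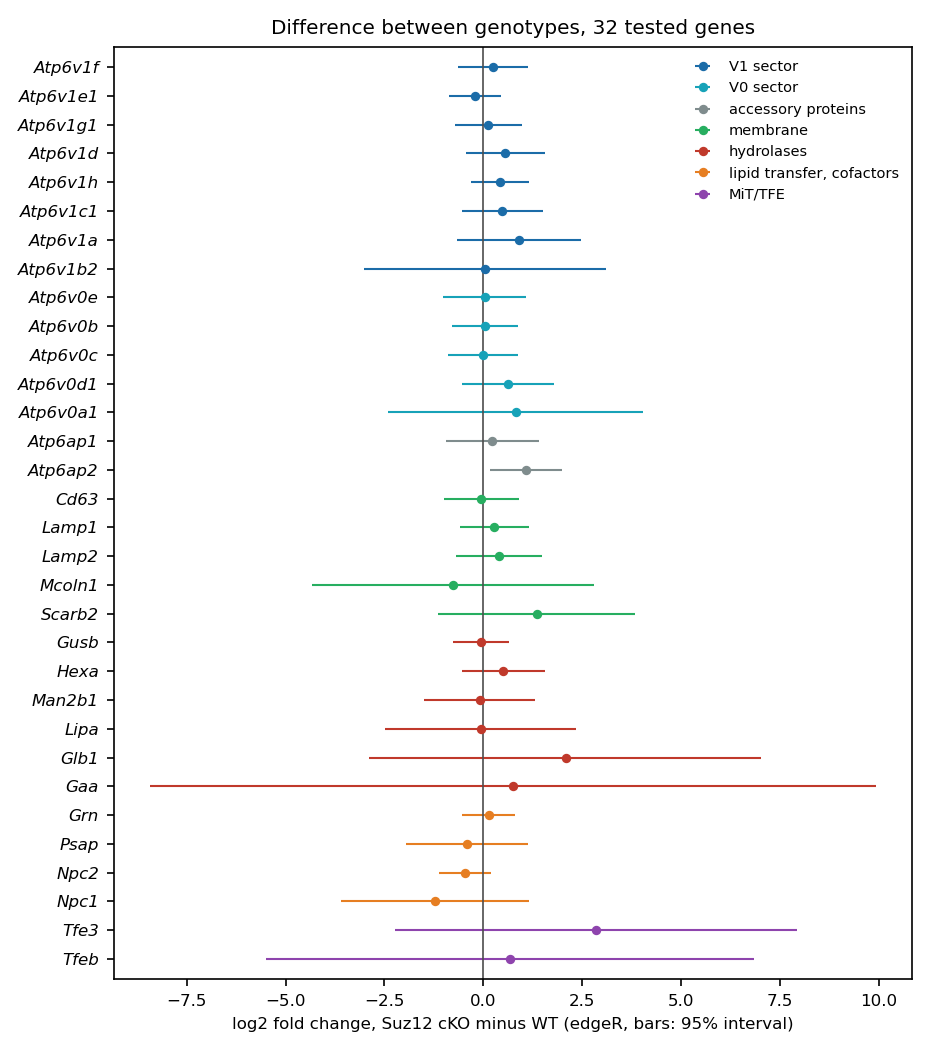
Log2 fold change, Suz12 cKO minus WT, of the 32 tested genes by class, with 95% intervals from the edgeR fit. Every interval includes 0 except that of Atp6ap2 (0.16 to 2.00), which is not adjusted for the number of genes tested, and the intervals of Gaa, Tfeb and Tfe3 are the widest.

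The median standard error of the log2 fold change was 0.45 over the 32 tested genes and 1.87 over all tested genes. In 5 of 32 (15.6%), namely Mcoln1, Gaa, Glb1, Tfeb and Tfe3, some library reached 10 CPM and some other stayed under 1 CPM, against 36.8% of all tested genes. No V-ATPase gene was among them, and they were among the scarcer of the 32 per kilobase, at 0.836 to 10.3 CPM. The most even genes were Gusb, Atp6v1e1 and Grn, whose highest library exceeded the lowest 1.29-fold, 1.38-fold and 1.43-fold.

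Pump genes and hydrolase genes differed in which library held their highest value, and this difference lay inside the Suz12 cKO group. V-ATPase genes summed to 6390, 3895 and 4863 CPM in Suz12 cKO and to 4481 and 4361 CPM in WT. Hydrolases and cofactors, 10 genes, summed to 1830, 3173 and 2013 CPM in Suz12 cKO and to 2795 and 2161 CPM in WT. Suz12 cKO replicate 1 was the highest library for 11 of 15 tested V-ATPase genes and the lowest for 7 of the 10 hydrolase and cofactor genes. Suz12 cKO replicate 2 was the highest library for 7 of those 10 and the highest for 2 of the 15. The sums of both WT libraries fell inside the Suz12 cKO range for either class, while membrane proteins summed to 1490, 1188 and 1273 CPM in Suz12 cKO and to 1260 and 1148 CPM in WT.

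**Figure D3:**
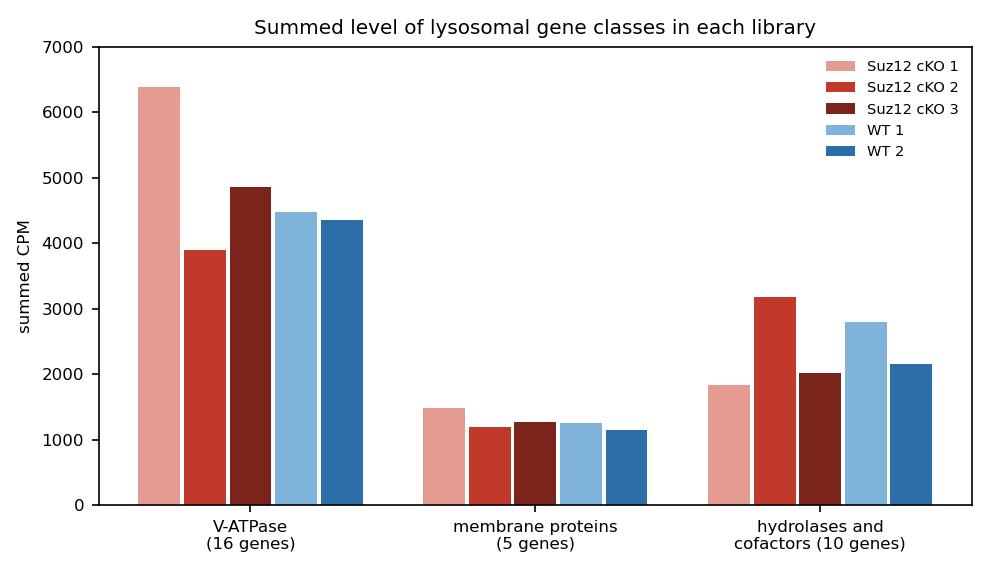
Summed CPM of V-ATPase genes, membrane proteins and hydrolases with cofactors in each library, Suz12 cKO in reds and WT in blues. Suz12 cKO replicate 1 has the highest pump sum (6390 CPM) and the lowest hydrolase sum (1830 CPM), and Suz12 cKO replicate 2 has the reverse, at 3895 and 3173 CPM.

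Gene length moved with this order. Of 11 tested genes of 2000 bp or less, 8 were highest in Suz12 cKO replicate 1 and 1 in replicate 2. Of 21 longer ones, 4 were highest in replicate 1 and 13 in replicate 2. On the log2(CPM + 1) scale, the longer genes deviated from their mean over the 5 libraries by a median of 0.78 in replicate 2, and the shorter ones by -0.27. All expressed genes, taken as those with a mean of at least 10 CPM, showed the same signs in that library, with medians of 0.48 over 3566 longer genes and -0.22 over 2782 shorter ones. In replicate 1 the shorter genes of the 34 deviated by 0.44 and the longer by -0.05, beside 0.17 and 0.05 over all expressed genes. The part of gene length in the difference between pump and hydrolase genes was not tested. This split by length was chosen after the values were seen.

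**Figure D4:**
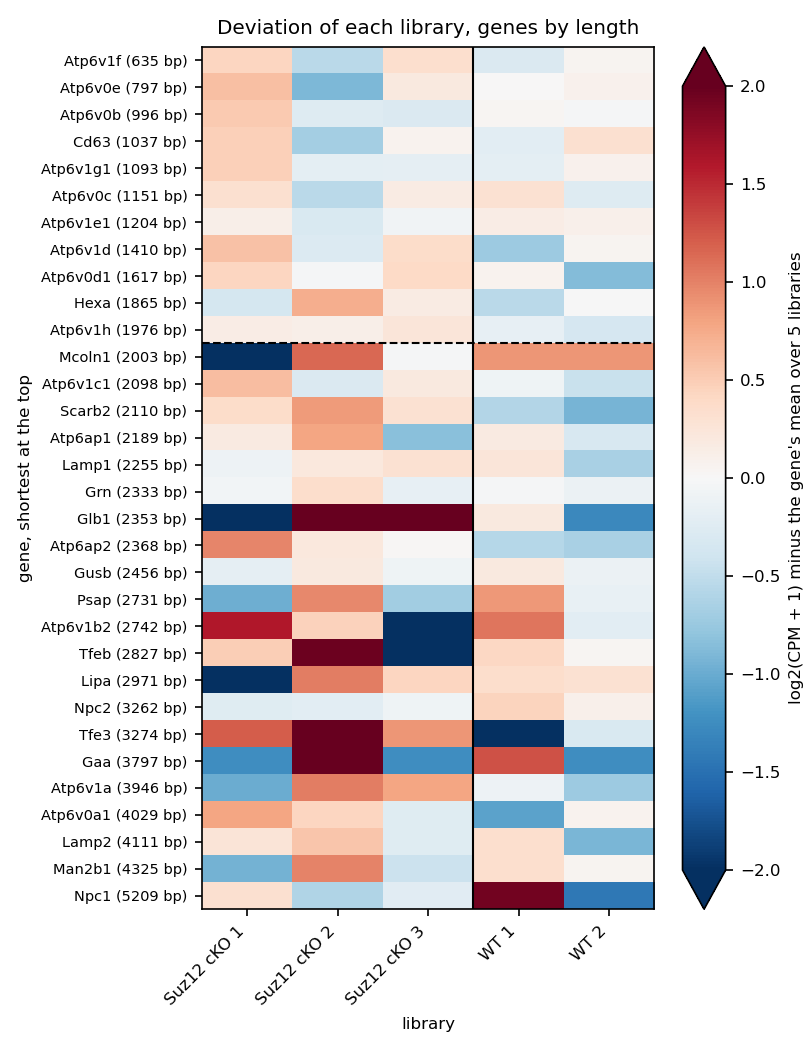
Deviation of each library from the gene's mean over the 5 libraries, log2(CPM + 1), for the 32 tested genes ordered by length, with Suz12 cKO left of the solid line and genes of 2000 bp or less above the dashed line. In Suz12 cKO replicate 2 most short genes are blue (median -0.27) and most long genes red (median 0.78).

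E-box and difference between genotypes were set side by side as a description. The 8 genes with an E-box had a median log2 fold change of 0.45, with 7 above 0 and 1, Mcoln1, below. Of the 7, Atp6v0b and Atp6v0e lay at 0.04, and Gaa (0.74) and Glb1 (2.08) had standard errors of 3.84 and 2.07. Over all tested genes the median was 0.06, with 5246 above 0 and 4742 below. The 19 tested genes whose windows had none had a median of 0.23, with 11 above and 8 below. No gene of either set passed the test.

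Of 108 other genes of the organelle 85 had enough counts to test. None passed (edgeR), 37 had a log2 fold change above 0 and 48 below, with a median of -0.13. Among further pump subunits and assembly factors 4 lay higher and 5 lower. Vma21, an assembly factor of the V0 sector, lay at 169, 86.9 and 246 CPM in Suz12 cKO and at 71.6 and 83.5 CPM in WT (log2 fold change 1.11, standard error 0.51). Its groups did not overlap, though Suz12 cKO replicate 2 came close to the WT libraries. Tcirg1, the a3 subunit of osteoclasts and macrophages, had no count in Suz12 cKO replicate 1 or in WT and lay at 11 and 10.4 CPM in Suz12 cKO replicates 2 and 3. Tm9sf4 lay at 2.74, 0 and 6.41 CPM in Suz12 cKO and at 28.5 and 18.7 CPM in WT.

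Of 24 further membrane proteins 13 lay higher and 11 lower. Cd68, a glycoprotein of phagocyte lysosomes, had the smallest p-value of all 108, at 226, 279 and 378 CPM in Suz12 cKO and 683 and 582 CPM in WT (log2 fold change -1.10, standard error 0.32, unadjusted p = 0.0113, edgeR adjusted p = 0.968). Of the macrophage and monocyte markers, Lyz2, C1qb, C1qc and Mrc1 lay lower in the same libraries. The groups of C1qa, Cd163, Ly6c2 and Ccr2 overlapped, as did those of Timd4 and Vcan, whose means were higher in Suz12 cKO. The part of these markers in the value of Cd68 was not tested. Slc38a9, an amino acid sensor of the lysosome, lay at 8.66, 38.6 and 13 CPM in Suz12 cKO and at 0.316 and 2.82 CPM in WT, and Litaf at 872, 769 and 731 CPM in Suz12 cKO and at 681 and 518 CPM in WT.

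Of 28 further hydrolases and cofactors 12 lay higher and 16 lower, and in 5 of them, none in the other direction, the groups did not overlap with Suz12 cKO lower (10.2% of all tested genes were so placed, and 8.87% in the other direction). Sgsh, which removes sulphate from heparan sulphate, had no count in Suz12 cKO and lay at 25.1 and 6.75 CPM in WT. With 3 counts over the Suz12 cKO group as the floor it was at least 307-fold lower. This bound covers counting error and not the spread between libraries. The edgeR fit gave Sgsh a log2 fold change of -11.20 (standard error 3.52, 95% interval -20.35 to -2.04, adjusted p = 0.968). Ppt1, which removes palmitate from proteins, lay at 226, 198 and 105 CPM in Suz12 cKO and at 375 and 339 CPM in WT (log2 fold change -1.02, standard error 0.39). Naaa, an amidase of lipid mediators, lay at 70.4, 245 and 72.0 CPM in Suz12 cKO and at 426 and 252 CPM in WT. All 3 lay lower in each Suz12 cKO library than in either WT library, and their smallest unadjusted p was 0.0259. Of the macrophage and monocyte markers, Lyz2, C1qb, C1qc and Mrc1 were lower in the same libraries, while C1qa, Cd163, Ly6c2, Ccr2, Timd4 and Vcan overlapped between groups. The part of these markers in the values of Sgsh, Ppt1 and Naaa was not tested.

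Genes of delivery and nutrient sensing had 8 higher and 16 lower of 24. Flcn, folliculin, which is known to hold Tfeb and Tfe3 in the cytoplasm, lay at 59.8, 3.98 and 20.1 CPM in Suz12 cKO and at 0 and 2.70 CPM in WT. Sort1, a sorting receptor, lay at 7.42, 4.44 and 0 CPM in Suz12 cKO and at 0 and 0.0587 CPM in WT, and Lamtor3, part of the scaffold that recruits mTORC1, at 127, 54.4 and 128 CPM in Suz12 cKO and at 69.8 and 55.9 CPM in WT.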

How the data were processed

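Poly(A) libraries of purified skin Langerhans cells were read from both ends over 75 bp, per the design text. Raw counts for each gene were deposited by the authors, and the submitters' processing notes name featureCounts and mm10. The aligner, its version and the treatment of strand and of reads with several matches were not given in the sources used here. Overlapping genes and close paralogs are therefore uncertain. Deposited gene lengths gave levels per kilobase. The counts of the 5 files per sample equalled the series table. Symbols came from RefSeq for 25275 identifiers and from GENCODE vM21 for 18. The 1886 without a symbol held 1.46% to 2.30% of counts and stayed in the fit. No same-group pair of libraries agreed within counting noise.

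The fit over all genes was edgeR 4.0.16 (R 4.3.3): TMM factors, genes kept by filterByExpr with its minimum count set to 10, robust quasi-likelihood F test on genotype, Benjamini-Hochberg adjustment, threshold 0.05. Standard errors are the size of the log2 fold change (Suz12 cKO minus WT) over the root of F. Alternatives used DESeq2 1.42.0, limma 3.58.1 and the settings of the closing part. The code was tested on simulated counts. The p-values reflect how these 5 libraries spread, 3 Suz12 cKO and 2 WT.

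Members and lists were chosen with earlier results of these data known. Values per library are given for genes with separate groups, an unadjusted p under 0.05, no count in a library, or the 2 highest levels per kilobase of their class. In the other lists, the 3 smallest p-values were named. Atp6v1a, Atp6v1b2, Atp6v0d1, Mcoln1, Man2b1, Lipa, Glb1, Npc1, Tfec, Lyz2, C1qb, C1qc, Mrc1, Timd4, Vcan, Mmp9, Cd207 and the tissue forms without a count were singled out after their values were seen. So were the markers C1qa, Cd163, Ly6c2, Ccr2, Krt5, Krt10, Krt14, Krtdap, Sfn, Perp and Trp63. Figures used matplotlib 3.10.9 in Python 3.11.15.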

Additional observations from a re-analysis of the deposited data

How the results depend on the processing

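Under every setting tried none of the genes with an adjusted p was called (31 to 33 of the 34, Gaa having none with DESeq2), while genes called over the whole table numbered 191 with DESeq2, 1 with the replicate number as a block and 0 under the other settings. Replicate numbers 1 and 2 occur in both genotypes, but same-numbered libraries did not deviate together (correlations -0.03 and -0.02). The deviations of the 2 WT libraries mirror each other, so these values cannot show whether the numbers pair the samples. Under that block the MiT/TFE median log2 fold change was 3.53, Atp6v0e -0.20 and Glb1 -1.0. Of 511 log2 fold changes of single genes under alternatives 467 kept their direction and 44 reversed, and 14 of 32 genes never reversed. With limma-voom, values turned for Atp6v1b2 (-0.79), Atp6v0b (-0.01), Atp6v0c (0.02), Atp6v0e (-4.0e-03), Atp6ap1 (-0.01), Gaa (-1.71) and Tfeb (-3.03). With a term for how the titles are written they turned for Atp6v1b2 (-1.38), Atp6v0b (-0.03), Atp6ap1 (-0.04), Cd63 (0.01) and Tfeb (-3.11). Plain library totals gave -9.4e-03 for Atp6v1b2 and -0.02 for Atp6v0e, upper-quartile factors 2.5e-03 for Atp6v0c, and edgeR without its legacy setting 0.06 for Lipa; this last setting and plain totals were chosen after seeing the data. With 1 library left out, class medians ranged from -0.09 to 0.80 for membrane proteins, -0.74 to 0.19 for lipid transfer and cofactors and 0.85 to 6.47 for MiT/TFE factors, the extremes coming without WT replicate 2 and 1, without Suz12 cKO replicate 2 and WT replicate 1, and without Suz12 cKO replicate 2 and WT replicate 2. Likewise log2 fold changes ranged from -0.97 to 0.85 for Atp6v1b2, -0.12 to 0.27 for Atp6v1g1, -0.26 to 0.18 for Atp6v0b, -0.28 to 0.30 for Atp6v0c, -0.29 to 0.36 for Atp6v0e, -0.20 to 0.57 for Atp6ap1, -0.10 to 0.80 for Lamp1, -0.09 to 1.15 for Lamp2 and -0.32 to 0.23 for Cd63. They ranged from -0.21 to 9.19 for Gaa, -0.20 to 0.11 for Gusb, -0.88 to 0.28 for Man2b1, -0.69 to 0.46 for Lipa, -2.10 to 1.39 for Npc1, -1.28 to 0.18 for Psap, -0.04 to 0.25 for Grn and -0.72 to 1.28 for Tfeb. The median over all tested genes was 0.29 without WT replicate 1 and 0.37 without WT replicate 2, against 0.06. With 1 WT library left the filter kept 11842 and 11690 genes, in place of 9988, so these medians are over unlike sets of genes. The cause of the changes was not tested. Where 1 WT library remained, it was assumed to vary like the Suz12 cKO group. With 2 WT libraries, differences of the size seen here could not be told from the spread between libraries.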

Other observations

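Further subunits and assembly factors of the V-ATPase that had counts in 1 genotype had them in Suz12 cKO. Tcirg1, Atp6v0a4, Atp6v0e2, Atp6v1c2 and Dmxl2 had none in WT, and none of the 18 genes of this list had counts in WT alone. Over all genes of the table, 2175 had no count in WT and at least 1 in Suz12 cKO, and 1086 the reverse, with 3 libraries in one group and 2 in the other. Atp6v0a4, known from kidney, came from Suz12 cKO replicate 2 alone (120 counts), Atp6v1c2 from replicate 3 alone (140 counts) and Dmxl2 from replicate 2 alone (391 counts). These genes were chosen after their values were seen, and no cause was tested.

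Gpnmb, a glycoprotein of lysosomes and melanosomes, had 125 counts, all in WT replicate 2, the library with the highest sum of melanocyte markers, and was not tested.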
